A study of Mus musculus with 6 samples.

Results

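The 36 genes described here encode the machinery that copies and divides the genome: 19 genes of DNA replication, 15 genes of mitosis, and Top2a and Mki67, which act on chromosome structure. They were chosen by name as a measure of proliferation. The rule names no expression value, but the choice was made with earlier results of these data known. All 36 were found by symbol among the 39179 gene identifiers of each count file. All 36 passed the filter on low counts and were among the 14928 genes tested. Naive splenic CD4+ T cells of wild-type C57BL/6 mice, 6 weeks old, were cultured for 3 days under conditions that induce regulatory T cells (Tregs), namely coated anti-CD3 (2 µg/ml; the first letter of the unit is garbled in the labels), anti-CD28 (1 µg/ml), TGF-β1 (5 ng/ml) and IL-2 (40 ng/ml). To this culture, common to both groups, 3 libraries had DEL-1-Fc added (the integrin-binding protein DEL-1 fused to an antibody Fc part) and 3 had the Fc control, and polyA-selected RNA was sequenced. Separate mice or cultures are not named for the replicates, so the p-values reflect spread among libraries that may be technical only.

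DNA replication starts when the Mcm2 to Mcm7 proteins are loaded as a ring at replication origins by Cdc6 and Cdt1, a step called licensing. The ring becomes an active helicase when Cdc45 and the GINS proteins join it, after which polymerases copy the strands. Mitosis is driven by Cdk1 bound to cyclins, and the Aurora and Polo-like kinases, the kinetochore and the spindle motors then part the chromosomes. In T cells both sets of genes are low at rest and are switched on after activation through the T cell receptor and CD28, and their RNA is commonly read as a sign of cycling cells. As background, replication genes are classic targets of E2F factors, and many mitosis genes carry a CHR element (cell cycle genes homology region) next to CCAAT boxes, through which the DREAM and MMB complexes act.

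In the promoter windows of the members, E2F-type and CHR-type words followed this split, while the CCAAT word was common in both sets. RefSeq windows (GRCm38.p6, 250 bases before to 50 after the transcription start) were found for 29 of the 36 members. Mcm7 had 2 windows, so 15 replication members gave 16 windows. E2F-type words (the motif TTCCCGC, the motif TTGGCGC, the motif TTCGCGC or the motif TTGCCGC, on either strand, overlaps allowed) occurred in 11 of 16 windows of replication members (68.8%), in 2 of 12 windows of mitosis members (16.7%) and in 9.57% of all 32851 windows in the table. CHR-type words (the motif TTTGAA or the motif TTCGAA, either strand) occurred in 9 of 12 mitosis windows (75%), 3 of 16 replication windows (18.8%) and 19.2% of all windows. The CCAAT word was in 13 of 16 replication, 11 of 12 mitosis and 37.4% of all windows. A match is a description of the letters and not a bound site. The windows below are those of the 2 most abundant replication members with an E2F-type word (Mcm6, chr1:128359656-128359955 on the minus strand, and Mcm3, chr1:20820263-20820562 on the minus strand), in which capitals mark E2F-type words.
Mcm6: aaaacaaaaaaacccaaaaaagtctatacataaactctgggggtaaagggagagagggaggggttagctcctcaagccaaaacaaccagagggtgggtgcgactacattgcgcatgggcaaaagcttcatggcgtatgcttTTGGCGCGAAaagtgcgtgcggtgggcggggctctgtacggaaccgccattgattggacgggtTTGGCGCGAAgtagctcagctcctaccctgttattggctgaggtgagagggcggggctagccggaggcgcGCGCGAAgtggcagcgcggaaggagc
Mcm3: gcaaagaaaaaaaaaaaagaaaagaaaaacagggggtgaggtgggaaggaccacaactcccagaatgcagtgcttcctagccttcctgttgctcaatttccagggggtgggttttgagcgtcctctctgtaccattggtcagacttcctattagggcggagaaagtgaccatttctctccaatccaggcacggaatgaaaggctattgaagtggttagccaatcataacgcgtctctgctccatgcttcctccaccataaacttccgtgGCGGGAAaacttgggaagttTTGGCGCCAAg

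In Mcm6 the word TTGGCGC overlapped TTCGCGC of the other strand at 2 places upstream of the start. The next windows are those of the 2 most abundant mitosis members with a CHR-type word (Kif11, chr19:37376132-37376431 on the plus strand, and Plk1, chr7:122159185-122159484 on the plus strand) and of Ccnb2 (chr9:70421505-70421804 on the minus strand), which is shown because it had the largest difference between the groups and was chosen after its values were seen. Here capitals mark CHR-type and CCAAT words.
Kif11: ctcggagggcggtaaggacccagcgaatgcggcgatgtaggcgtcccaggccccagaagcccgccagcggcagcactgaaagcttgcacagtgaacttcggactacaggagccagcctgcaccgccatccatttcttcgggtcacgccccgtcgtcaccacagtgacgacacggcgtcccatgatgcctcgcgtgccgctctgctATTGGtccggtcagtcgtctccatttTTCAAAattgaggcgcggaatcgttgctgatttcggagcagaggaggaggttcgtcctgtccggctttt
Plk1: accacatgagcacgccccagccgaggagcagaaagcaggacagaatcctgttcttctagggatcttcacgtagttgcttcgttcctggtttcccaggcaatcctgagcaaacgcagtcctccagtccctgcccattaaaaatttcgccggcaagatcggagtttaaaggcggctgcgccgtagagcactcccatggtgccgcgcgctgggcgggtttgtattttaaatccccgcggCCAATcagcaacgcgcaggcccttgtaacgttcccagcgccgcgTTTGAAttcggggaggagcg
Ccnb2: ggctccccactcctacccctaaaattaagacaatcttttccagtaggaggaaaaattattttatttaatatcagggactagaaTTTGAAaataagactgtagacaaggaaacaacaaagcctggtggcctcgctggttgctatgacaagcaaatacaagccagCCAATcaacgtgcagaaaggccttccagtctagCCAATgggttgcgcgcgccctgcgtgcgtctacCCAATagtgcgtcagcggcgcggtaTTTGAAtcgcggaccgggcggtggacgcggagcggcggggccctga

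In Ccnb2, 3 CCAAT words lay upstream of the start, CHR-type words began at positions -167 and 5 counted from the start, and no E2F-type word was found. Levels here and below are CPM, a gene's counts scaled to a common library size after correction by TMM, edgeR's factor for differences in library composition.

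Both cultures expressed all 36 members, at levels that differed widely among them. In Fc the member means ran from 31.1 CPM (Gins1) to 1084 CPM (Mki67) with a median of 172 CPM. Per kilobase of exon, counted over all annotated exons of a gene, Pcna, the sliding clamp of the polymerases, had the highest level at 268 CPM per kb, above 99.2% of all tested genes. Cenpf, a kinetochore protein, had the lowest at 7.37 CPM per kb, above 58.4% of them. The median member stood at the 90.01 percentile per kb. This exon length can exceed that of any 1 transcript, as in Rrm1 (11.0 kb, longest transcript 5475 bases), so levels per kb compare genes only roughly. Together the 36 genes took 0.969% to 0.980% of all counts in the Fc libraries and 1.01% to 1.08% in the DEL-1-Fc libraries. Counting error was small, since the lowest count of any member in any library was 989 (Gins1), and the median counting error of a member was 1.03%.

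The libraries held 33364166 to 61967687 counts, and DEL-1-Fc replicate 1 was the shallowest and stood apart from the other DEL-1-Fc libraries. T cell markers were high in Fc (Cd3e 215 CPM, Cd4 661 CPM, Foxp3 359.5 CPM), as the label states, whereas the B cell marker Cd79a was at 1.93 CPM, the myeloid marker Lyz2 at 0.0572 CPM and the erythroid marker Hbb-bs at 0 in every library, which allows up to 0.0914 CPM in the shallowest. Summed over the 7 listed erythroid precursor markers, another cycling cell type, the level was 892 to 927 CPM with Fc and 708 to 965 CPM with DEL-1-Fc, nearly all of it Tfrc, the transferrin receptor that activated T cells also express. Ighm, the immunoglobulin mu heavy chain gene, stood at 360.2 to 381 CPM with Fc and 447 to 478 CPM with DEL-1-Fc. Summed over the 5 listed NK cell markers the level was 134.8 to 150.5 CPM with Fc and 72.0 to 103 CPM with DEL-1-Fc, and over the 8 listed myeloid markers it was 0.310 to 0.692 CPM across all libraries. With Fc and with DEL-1-Fc, the summed levels were 10.1 to 10.4 and 11.9 to 12.8 CPM for the 2 CD8 T cell markers, 225.1 to 250.8 and 252.9 to 278 CPM for the 4 plasma cell markers, 8.91 to 9.02 and 6.51 to 7.06 CPM for the 5 dendritic cell markers, and 58.3 to 68.7 and 73.8 to 85.4 CPM for the 5 stroma markers. By edgeR's test the markers Cd8a (log2 fold change 0.78), Klrd1 (0.55), Foxp3 (0.54), Pecam1 (0.36) and Ighm (0.32) rose, and Ebf1 (-1.40), Nkg7 (-0.71), Zbtb46 (-0.42) and Ctla4 (-0.30) fell. That is 1 higher and 1 lower of 10 CD4 T cell and Treg, 7 B cell and 2 NK cell markers tested. It is 1 higher of 2 CD8 T cell and of 2 stroma markers, and 1 lower of 1 dendritic cell marker. Over all genes tested 6.40% were called higher and 6.22% lower. The call of Foxp3 was lost in 3 of 17 alternative analyses, namely without Fc replicate 1 or 3 or DEL-1-Fc replicate 1. The 10 CD4 T cell and Treg markers summed to 6165 to 6469 CPM with Fc and 6413 to 6669.75 CPM with DEL-1-Fc. The part of these other cells in the results was not tested. In bulk RNA, fewer cycling cells and less RNA per cycling cell cannot be told apart.

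DEL-1-Fc and Fc differed little in these genes. Of the 36 members, 2 (5.56%) passed edgeR's quasi-likelihood test at an adjusted p under 0.05, both higher in DEL-1-Fc, while 12.6% of all genes tested passed in either direction, 6.40% higher and 6.22% lower. Among the 6003 genes at least as abundant as the least abundant member the share was 13.1%. At an unadjusted p under 0.05 the count was 7 of 36 (19.4%), against 27.0% of all genes. Log2 fold changes (DEL-1-Fc over Fc) of the members ran from -0.20 (Cenpe) to 0.30 (Ccnb2) with a median of 0.07, beside a median of 0.01 over all genes tested. The 95% intervals of all 36 lay between 0.716-fold and 1.40-fold, so a change of 1.5-fold in either direction was outside the interval of each member. For 29 of the 36 the interval included no change.

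**Figure D1:**
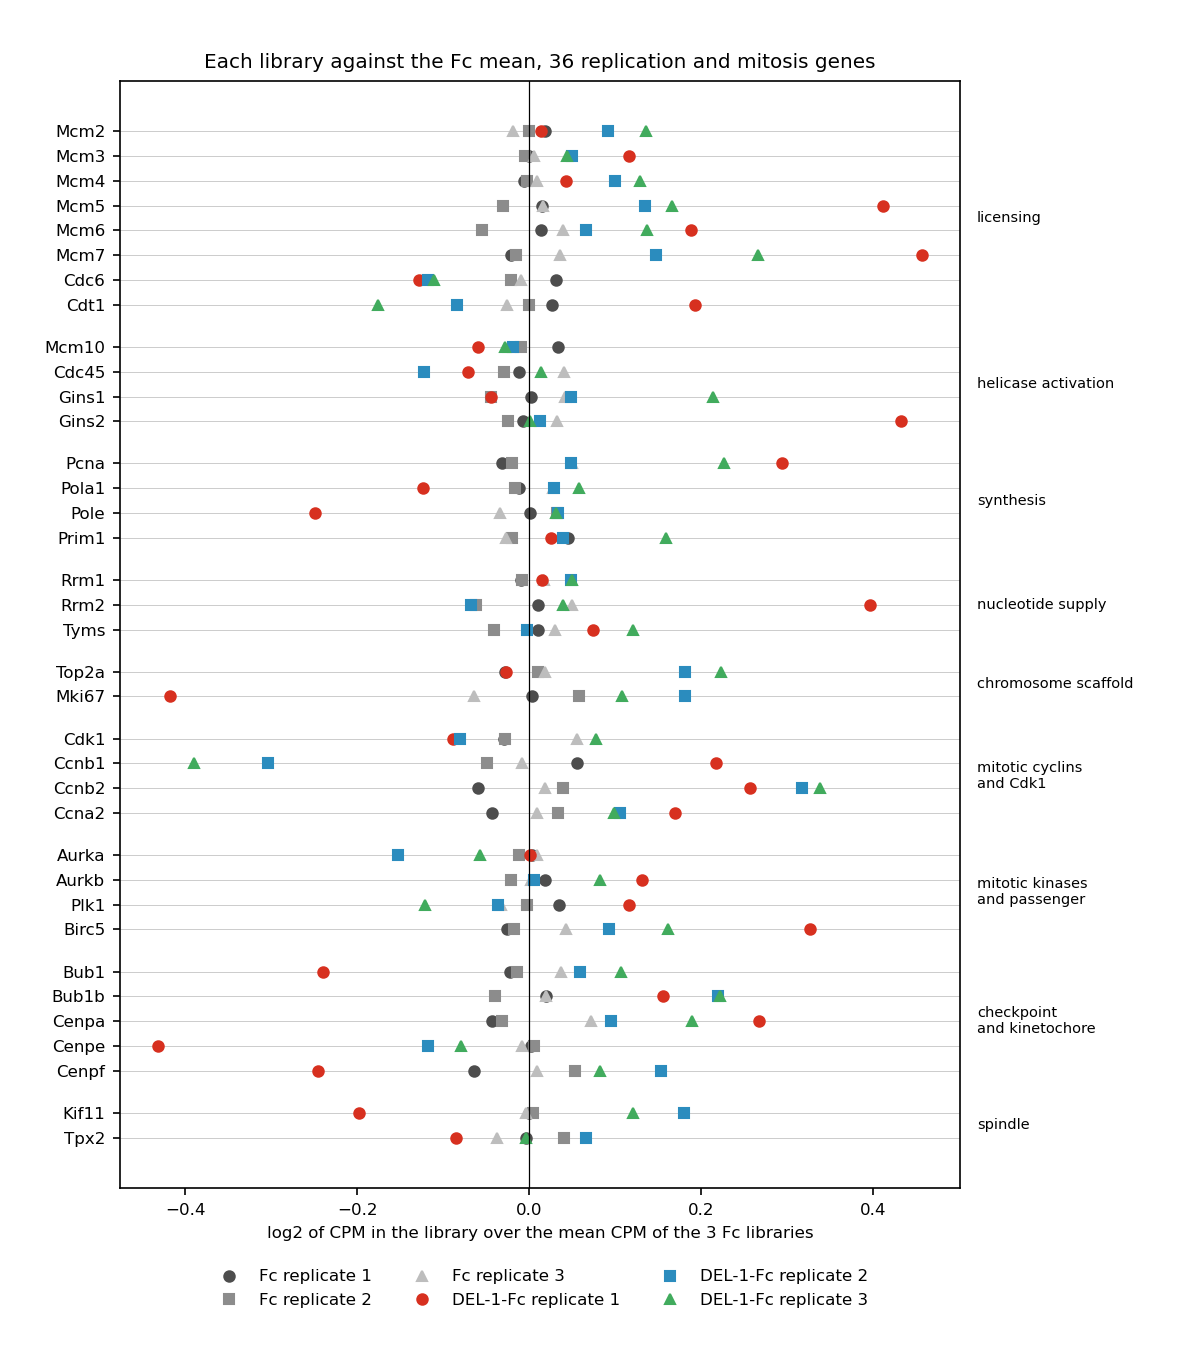
Log2 of the CPM of each library over the mean of the 3 Fc libraries for each of the 36 genes, grouped by role. Grey symbols are Fc and coloured symbols DEL-1-Fc libraries; DEL-1-Fc replicate 1 (red) lies far from the rest for Mki67, Cenpe, Mcm7 and Gins2.

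**Figure D2:**
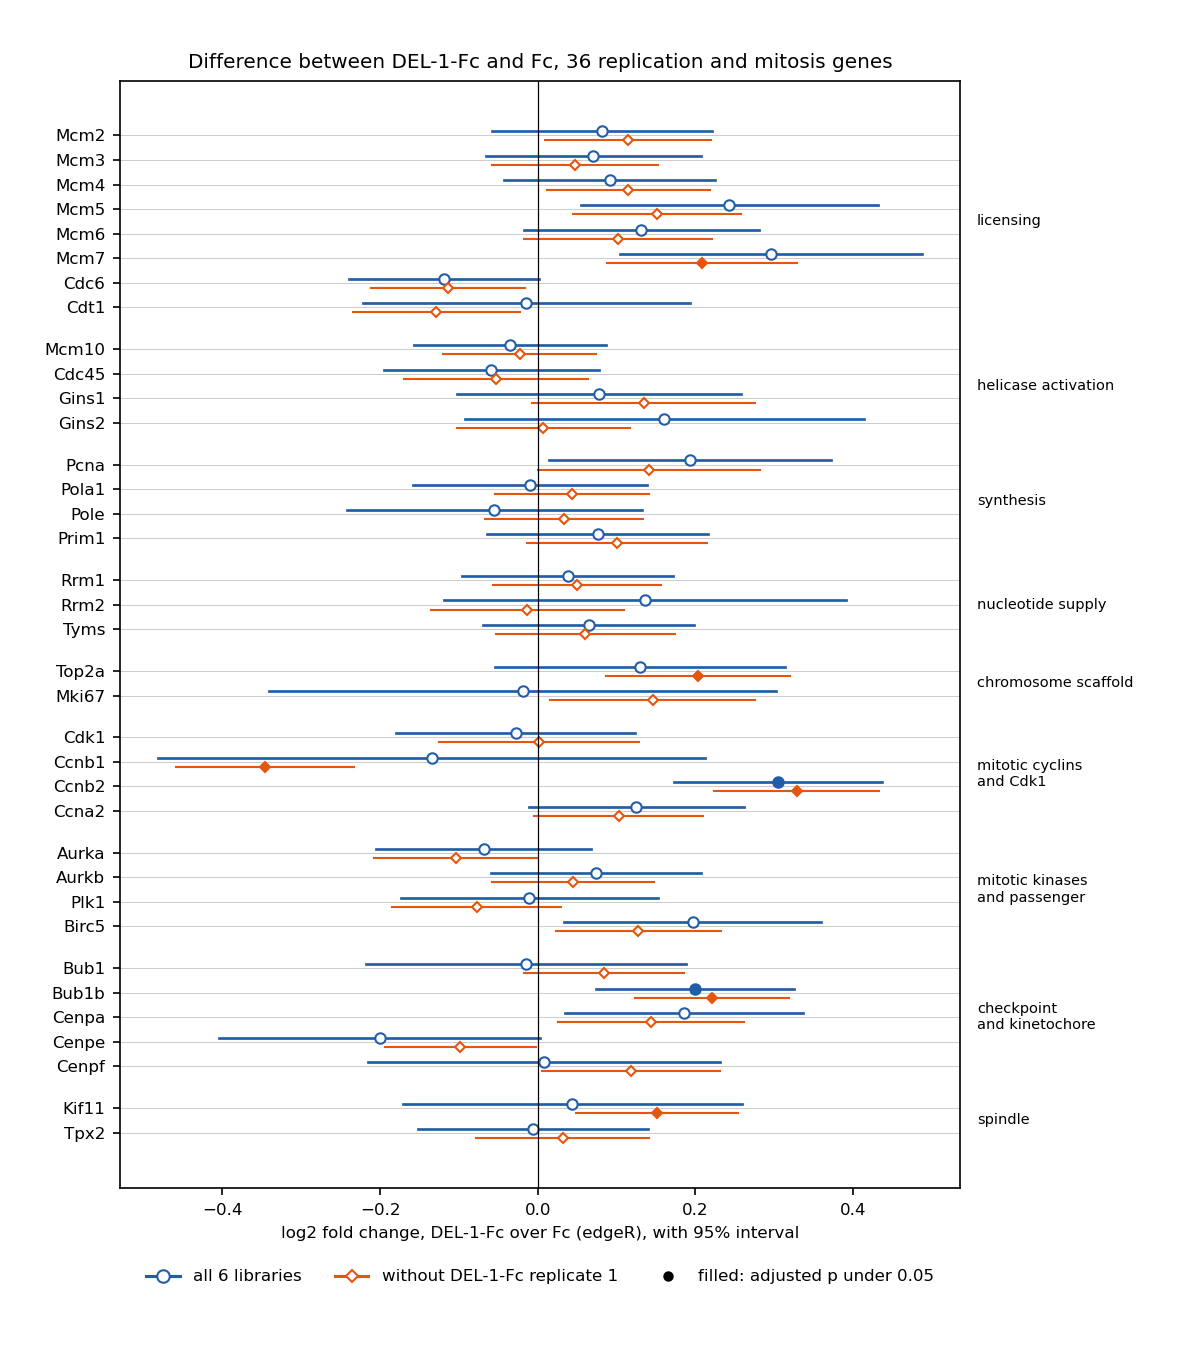
Log2 fold change of each of the 36 genes, DEL-1-Fc over Fc, with its 95% interval, for all 6 libraries (blue circles) and without DEL-1-Fc replicate 1 (orange diamonds). Filled symbols passed edgeR at an adjusted p under 0.05: Ccnb2 and Bub1b with all libraries, and 6 genes without that replicate.

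The 2 members called higher were Ccnb2 and Bub1b, a share (5.56%) near the 6.40% of all genes called higher. Ccnb2 encodes cyclin B2, a partner of Cdk1. It measured 103, 109.8 and 108 CPM in the Fc libraries and 128, 133 and 135 CPM in the DEL-1-Fc libraries. All DEL-1-Fc values lay above all Fc values, and the fold was 1.24 (log2 fold change 0.30, SE 0.0582, edgeR adjusted p = 0.00986). Bub1b encodes BubR1, a kinase-like protein of the spindle checkpoint that holds back separation of the chromosomes. Its values were 139.7, 134 and 139.6 CPM with Fc and 153, 160.4 and 161 CPM with DEL-1-Fc, again without overlap, and the fold was 1.15 (0.20, SE 0.0555, adjusted p = 0.0481). Ccnb2 (minus strand of chromosome 9, 70407692 to 70421547 in GRCm38) and Bub1b (plus strand of chromosome 2, 118598211 to 118641591) overlapped no other gene's exons and shared none of their 31-base words with other genes. Ccnb2 was no longer called when Fc replicate 1 or 3 was omitted (edgeR adjusted p 0.0717 and 0.0529), over a range of 0.000118 to 0.0717 in 17 alternatives. Bub1b lost its call in 10 of the 17 alternatives (range 0.00624 to 0.224).

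Among licensing genes, the 6 Mcm genes, subunits of the replicative helicase ring, all had fold changes above 0, at log2 values of 0.07 to 0.30, and none passed the test. The same sign was seen for all 6 under each of the 17 alternatives, scalings included, which reuse the same libraries and are not independent. A fold change above 0 was seen for 22 of the 36 members and 7678 of the 14928 genes tested. Mcm7 measured 398, 399 and 414 CPM with Fc and 554, 447 and 485 CPM with DEL-1-Fc (log2 fold change 0.30, SE 0.0846, edgeR adjusted p = 0.0529). Mcm5 measured 406, 394 and 407 CPM with Fc and 535, 442 and 452 CPM with DEL-1-Fc (0.24, SE 0.083, adjusted p = 0.0945). In both genes the 3 DEL-1-Fc libraries lay above the 3 Fc libraries, with DEL-1-Fc replicate 1 highest. Mcm6 stood at 499, 476 and 508 CPM with Fc and at 564, 518 and 544 CPM with DEL-1-Fc. Mcm3 and Mcm4 were also separated, by less (adjusted p = 0.495 and 0.362), and Mcm2 overlapped between the groups. Summed over the 6 genes the levels were 2518, 2479 and 2540 CPM with Fc and 2919, 2685 and 2777 CPM with DEL-1-Fc. Mcm7 (minus strand of chromosome 5, 138164583 to 138172422) is less certain than the others, since 47.6% of its 31-base words also occur in other genes, 37.6% in the pseudogene Gm5487, and 7.25% of its exon bases are shared with Ap4m1 on the other strand. Its call passed in 7 of the 17 alternatives, among them DESeq2 (adjusted p = 0.0138) and the omission of DEL-1-Fc replicate 1 or 2, over a range of 0.0138 to 0.198. Mcm5 passed with library sizes alone (0.0482).

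The loaders of that ring did not share the sign. Cdc6 measured 127, 122 and 123 CPM with Fc and 113, 114 and 115 CPM with DEL-1-Fc, with all DEL-1-Fc values below all Fc values (log2 fold change -0.12, SE 0.0533, edgeR adjusted p = 0.191). Cdt1 stood at 117, 115 and 113 CPM with Fc and at 132, 109 and 102 CPM with DEL-1-Fc, where replicate 1 was above and the others below every Fc library (-0.01, adjusted p = 0.94).

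The genes that turn the loaded ring into a working helicase gave no call. Mcm10, which helps to activate the helicase, Cdc45, its partner, and the GINS subunits Gins1 and Gins2 had log2 fold changes of -0.04, -0.06, 0.08 and 0.16. Gins2 rested on 1 library, at 44.8, 44.2 and 46.0 CPM with Fc and 60.7, 45.4 and 45.0 CPM with DEL-1-Fc. It also shares 67.3% of its exon bases with Gse1 on the other strand, so its reads cannot be assigned with certainty. Gse1 itself had 36.5, 36.4 and 33.7 CPM with Fc and 30.2, 39.1 and 31.2 CPM with DEL-1-Fc. Of the genes of DNA synthesis, Pcna was the most abundant, with 630.4, 636 and 667 CPM with Fc and 789.7, 667 and 754 CPM with DEL-1-Fc (log2 fold change 0.19, SE 0.0789, edgeR adjusted p = 0.155). Its pseudogene Pcna-ps2 had 2.00 to 2.56 CPM with Fc and 2.99 to 4.11 CPM with DEL-1-Fc and shares 38% of the words of Pcna. Pola1, the catalytic subunit of the primer-making polymerase, Pole, that of the leading strand polymerase, and Prim1, the primase, had log2 fold changes of -0.01, -0.05 and 0.08. The enzymes of nucleotide supply did not pass either. Rrm1, the large subunit of ribonucleotide reductase, lay between 482 and 503 CPM in all 6 libraries (0.04, adjusted p = 0.726). Rrm2, its regulated small subunit, had 304, 289 and 312 CPM with Fc and 397, 288 and 310.0 CPM with DEL-1-Fc, so that replicate 1 alone was above the Fc range. Tyms, which makes thymidylate, had a log2 fold change of 0.06.

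Mki67, which encodes the proliferation marker Ki-67, had a wide spread among the DEL-1-Fc libraries. It measured 1087, 1129 and 1037 CPM with Fc and 811, 1229 and 1168 CPM with DEL-1-Fc, so that the DEL-1-Fc libraries lay on both sides of the Fc range (log2 fold change -0.02, SE 0.141, edgeR adjusted p = 0.95). Top2a, the topoisomerase that untangles chromosomes, measured 1010.5, 1038 and 1043 CPM with Fc and 1011, 1169 and 1203 CPM with DEL-1-Fc (0.13, adjusted p = 0.342). In both genes DEL-1-Fc replicate 1 was the lowest of its group.

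Mitotic cyclins differed among themselves. Cdk1, the mitotic kinase, overlapped between the groups at 179, 179 and 189.6 CPM with Fc and 172, 173 and 192 CPM with DEL-1-Fc (log2 fold change -0.03). Ccna2, the cyclin of S phase and early mitosis, stood at 328, 346 and 339.9 CPM with Fc and at 379.8, 363 and 362 CPM with DEL-1-Fc, without overlap but not called (0.12, edgeR adjusted p = 0.222). It shares 12.5% of its exon bases with Exosc9 on the other strand. Ccnb1, cyclin B1, the main mitotic cyclin, stood at 165, 154 and 158 CPM with Fc and at 185, 129 and 121 CPM with DEL-1-Fc. Its replicate 1 was above the Fc range and the other DEL-1-Fc libraries below it (-0.13, SE 0.149, adjusted p = 0.608). When DEL-1-Fc replicate 1 was omitted, Ccnb1 fell (-0.35, adjusted p = 0.00112). Ccnb1 shares 46.9% of its 31-base words with other genes, 40.2% with the pseudogene Ccnb1-ps, which itself had 2.47 to 3.07 CPM with Fc and 2.16 to 2.87 CPM with DEL-1-Fc.

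The mitotic kinases gave no call. Aurka, which matures the spindle poles, Aurkb, the kinase of the chromosomal passenger complex, and Plk1, the Polo-like kinase, had log2 fold changes of -0.07, 0.07 and -0.01, with overlapping groups. Birc5, survivin, which anchors the passenger complex, measured 159, 160.4 and 167 CPM with Fc and 204, 173 and 182 CPM with DEL-1-Fc, without overlap (0.20, SE 0.0718, edgeR adjusted p = 0.115). Among kinetochore genes, Cenpa, the centromeric histone, had 141, 142 and 152 CPM with Fc and 174, 155 and 165 CPM with DEL-1-Fc (0.19, adjusted p = 0.109). Cenpe, a kinetochore motor, pointed the other way at 162, 163 and 161 CPM with Fc and 120.1, 149 and 153 CPM with DEL-1-Fc (-0.20, SE 0.09, adjusted p = 0.192). Bub1, the checkpoint kinase, and Cenpf had log2 fold changes of -0.02 and 0.01. Of the spindle genes, Kif11, the motor that pushes the poles apart, had 286, 286 and 285 CPM with Fc and 249, 323 and 311 CPM with DEL-1-Fc (0.04), and Tpx2, which activates Aurka on the spindle, differed by -0.01. Counted over all 36 members, the groups did not overlap in 10 with DEL-1-Fc higher (27.8%, against 17.3% of all genes tested) and in 2 with DEL-1-Fc lower (5.56%, against 17.5%); either direction held for 34.8% of all genes. Among the 6003 genes of at least the abundance of Gins1 these shares were 15.4% higher and 22.6% lower.

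Summed levels of the replication genes and of the mitosis genes separated the groups by small amounts, while several sums by role overlapped. The 19 replication genes summed to 5028 ± 65.1 CPM with Fc and 5435 ± 226 CPM with DEL-1-Fc (SD, n = 3 each), a ratio of 1.08. The 15 mitosis genes summed to 2685 ± 15.7 and 2776 ± 18.5 CPM, a ratio of 1.03. Licensing genes, at 2751 ± 31.4 and 3022 ± 131 CPM, made up most of the first difference. Top2a with Mki67 summed to 2080 to 2167 CPM with Fc and 1823 to 2398 CPM with DEL-1-Fc. The sums for helicase activation, nucleotide supply, mitotic kinases, kinetochore and spindle genes overlapped too. Within the mitosis sum, DEL-1-Fc replicate 1 was highest of its group for mitotic kinases (746 CPM). It was lowest for kinetochore (625 CPM) and spindle genes (522 CPM), so these shifts partly offset each other. The ratio of mitosis to replication sums per library was 0.531, 0.542 and 0.530 with Fc and 0.487, 0.534 and 0.514 in DEL-1-Fc. DEL-1-Fc replicate 1 gave the lowest of these ratios, DEL-1-Fc replicate 2 lay inside the Fc range, and the group means were 0.534 ± 0.00645 and 0.511 ± 0.0234.

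**Figure D3:**
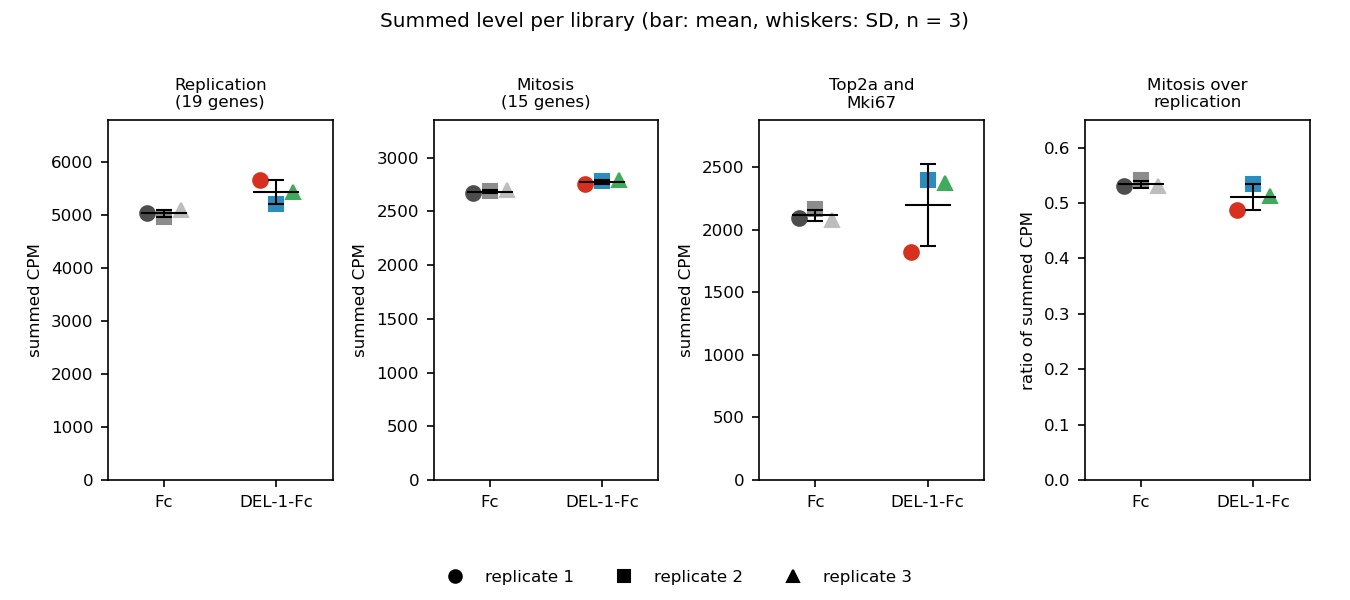
Summed CPM per library of the 19 replication genes, the 15 mitosis genes, Top2a with Mki67, and the ratio of the mitosis to the replication sum. Symbols are libraries, the horizontal bar is the mean and whiskers are the SD (n = 3); the replication sums run from 4962 to 5093 CPM with Fc and from 5207.5 to 5659 CPM with DEL-1-Fc.

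The members spread more widely among the DEL-1-Fc libraries than among the Fc libraries. The coefficient of variation (SD over mean) of a member had a median of 2.34% among the Fc libraries and 6.62% among the DEL-1-Fc libraries, and it was larger in DEL-1-Fc for 33 of the 36. Between DEL-1-Fc replicates 2 and 3 alone the median was 3.38%. DEL-1-Fc replicate 1 was the highest of the 6 libraries for 14 members and the lowest for 11. Its departure moved with gene length. For the 18 members with the longer exons (at or above 4.31 kb), the median of replicate 1 minus the mean of replicates 2 and 3 was -0.11 on the log2 scale, and for the 18 shorter members it was 0.10. Mki67 (-0.56), Cenpf (-0.36), Kif11 (-0.35) and Cenpe (-0.33) were among the lowest, and Ccnb1 (0.56), Gins2 (0.42) and Rrm2 (0.41) the highest. Across the 36 genes this difference had a Pearson correlation of -0.52 with log2 exon length, and across 14757 tested genes with a length it was -0.19. A relation to length was not particular to replicate 1. Set against the rest of its group in the same way, DEL-1-Fc replicate 2 gave 0.59 and 0.20, and DEL-1-Fc replicate 3 gave 0.34 and 0.05. Replicate 1 is part of both of these comparisons. Across the members Fc replicates 1, 2 and 3 gave -0.10, 0.37 and -0.27. Genes of 1 library share its preparation and are not independent replicates. The part of length in the group differences was not tested beyond the alternatives given next.

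**Figure D4:**
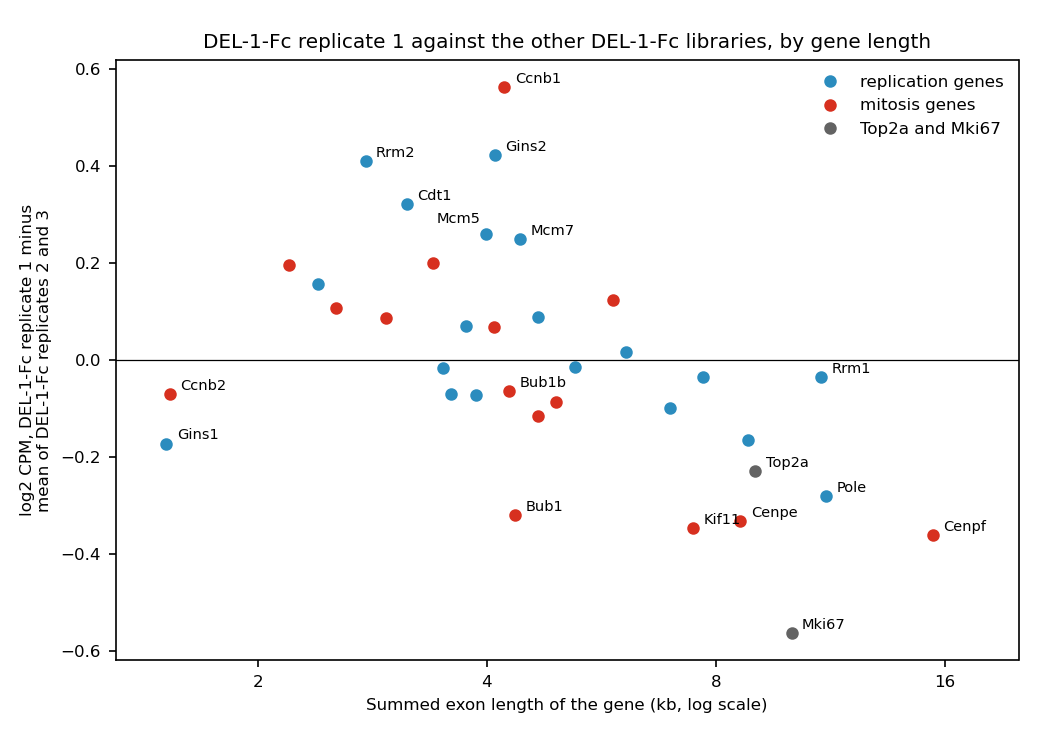
Log2 CPM of DEL-1-Fc replicate 1 minus the mean of DEL-1-Fc replicates 2 and 3, plotted against summed exon length (log scale) for each of the 36 genes. All genes with longer exons than Mcm2 lie below 0, Mki67 is the lowest point and Ccnb1 the highest.

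Without DEL-1-Fc replicate 1 the members called numbered 6 of 36 (5 higher, 1 lower), when 19.7% of 15208 genes tested were called (9.76% higher, 9.98% lower). The 5 that rose were Ccnb2 (log2 fold change 0.33, edgeR adjusted p = 0.000956), Bub1b (0.22, 0.00624), Top2a (0.20, 0.0218), Mcm7 (0.21, 0.0222) and Kif11 (0.15, 0.0441), and Ccnb1 fell. Mki67 then stood 0.15 higher on the log2 scale (adjusted p = 0.114). In this fit the groups did not overlap in 19 members with DEL-1-Fc higher (52.8%, against 24.8% of all genes) and in 6 with DEL-1-Fc lower (16.7%, against 23.8%). With each library's trend with exon length removed instead, an alternative chosen after seeing the data, 3 members were called higher (Ccnb2, Bub1b and Mcm7) and 0 lower. These are 8.33% of the members, when 15.5% of 14757 genes tested were called (7.80% higher, 7.67% lower).

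Further genes of the same processes were read from lists of 52 replication and 77 mitosis genes outside the 36. Of the 52 replication genes 2 rose and 0 fell (DESeq2 called 4 and 0), with a median log2 fold change of 0.07. Over all genes tested, edgeR called 6.40% higher and 6.22% lower, and DESeq2 called 16.3% in either direction. Asf1b, a chaperone that delivers histones to new DNA, measured 99.5 ± 1.88 CPM with Fc and 125.7 ± 2.67 CPM with DEL-1-Fc (SD, n = 3; 0.34 on the log2 scale, SE 0.0545, edgeR adjusted p = 0.00443), and its call held in all 17 alternatives. Pole2, a subunit of the leading strand polymerase, had a log2 fold change of 0.25 (adjusted p = 0.0282), and its call was lost in 7 of the 17 alternatives, among them the omission of any 1 Fc library or of DEL-1-Fc replicate 3. Of the 77 mitosis genes 5 rose and 2 fell, with a median of 0.04, beside the same 6.40% and 6.22% over all genes. Spc25 (0.33, SE 0.0598), a subunit of the Ndc80 complex that binds microtubules, Cenpl (0.31) and Cenpn (0.23), of the inner kinetochore, Nek2 (0.23), a centrosome kinase, and Ncapd2 (0.22), a condensin subunit, rose. The last was named after its values were seen. Spc25 lost its call only without Fc replicate 1, and Cenpl, Cenpn, Nek2 and Ncapd2 lost theirs in 4, 7, 6 and 10 of the 17 alternatives. Pttg1, which encodes securin, the inhibitor of the protease that cuts cohesin, fell 1.6-fold, from 38.8, 38.7 and 41.6 to 27.0, 21.9 and 25.6 CPM (-0.68, SE 0.0871, adjusted p = 0.00136), a call that held in all 17 alternatives. Gtse1, a microtubule-binding protein of G2 phase, fell by 0.28 on the log2 scale, a call lost without any 1 library other than DEL-1-Fc replicate 1. The mitosis list had 0, 1 and 1 risers without Fc replicates 1, 2 and 3, 3 without DEL-1-Fc replicate 2, 1 without DEL-1-Fc replicate 3, and 21 risers and 6 fallers without DEL-1-Fc replicate 1. Over all genes the calls in either direction were then 5.95%, 6.40%, 6.32%, 11.4%, 8.56% and 19.7%, in the same order. Without DEL-1-Fc replicate 1, 9.76% of all genes were called higher and 9.98% lower. The replication list had 6 risers without that library and 1 without any other single library except DEL-1-Fc replicate 2.

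**Figure D5:**
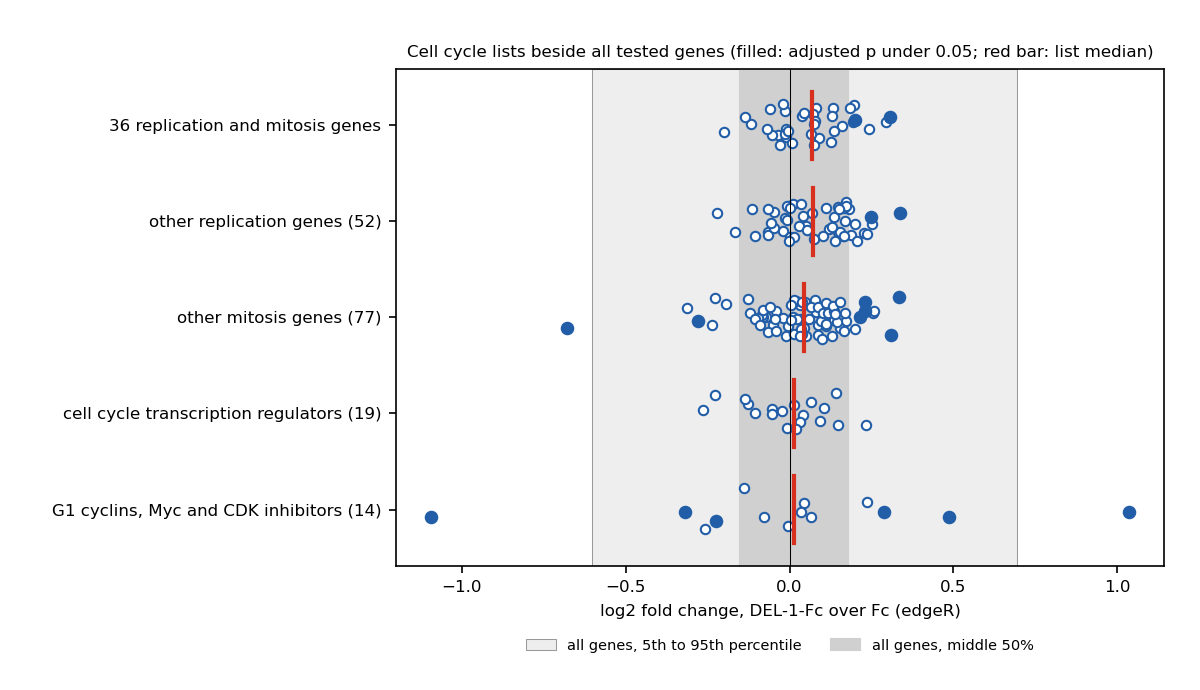
Log2 fold change, DEL-1-Fc over Fc, of the 36 genes and of 4 further cell cycle lists, with the number tested after each list. Points are genes, filled where edgeR's adjusted p was under 0.05, red bars are list medians (0.07, 0.07, 0.04, 0.01 and 0.01 from top to bottom), and grey bands span the middle 50% and the 5th to 95th percentile of all tested genes; the points beyond the outer band belong to Pttg1, Cdkn1a and Cdkn1c.

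Regulators upstream of the 36 genes were read in the same way. Of 19 transcription regulators of the cell cycle 0 passed edgeR, against 12.6% of all genes tested. An unadjusted p under 0.05 was seen for 3, against 27.0% of all genes. DESeq2 called 1 lower, when it called 16.3% of all genes in either direction. Without DEL-1-Fc replicate 1 edgeR called 2 higher and 1 lower, when it called 19.7% of all genes. E2f1, an activator of replication genes, measured 50.4 ± 1.9 CPM with Fc and 51.8 ± 1.81 CPM with DEL-1-Fc, E2f8, a repressor of the same family, 111 ± 3.15 and 106.9 ± 11.9 CPM, and Foxm1 and Mybl2, activators of mitosis genes, had log2 fold changes of 0.02 and -0.02. Of 14 tested G1 cyclins, G1 kinases, CDK inhibitors and Myc, 3 rose and 3 fell, beside 6.40% and 6.22% of all genes tested. Cdkn1a, the CDK inhibitor p21, fell 2.14-fold, Myc fell by 0.32 and Ccne1, cyclin E1, by 0.22 on the log2 scale, while the inhibitors Cdkn2c (0.49), Cdkn1b (0.29) and Cdkn1c (1.04, at 0.517 against 1.06 CPM) rose. Of these 6 calls, that of Cdkn1a held in all 17 alternatives and that of Cdkn2c in all but the omission of Fc replicate 1. The calls of Myc, Ccne1 and Cdkn1b were lost without any 1 Fc library or DEL-1-Fc replicate 3, and those of Ccne1 and Cdkn1b also without DEL-1-Fc replicate 2. Cdkn1c lost its call without Fc replicate 1 or 3 or DEL-1-Fc replicate 2 or 3, and after thinning. The D cyclins Ccnd2 and Ccnd3 had log2 fold changes of -0.14 and 0.04 and did not pass.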

How the data were processed

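PolyA RNA-seq was measured in 6 libraries, 3 Fc and 3 DEL-1-Fc, grouped by title. The authors deposited raw read counts per gene, made with STAR (no version given) and HTSeq 0.6.0 on GRCm38 (mm10), per the submitters' processing notes. The annotation release, strand setting and treatment of multi-mapping reads were not given in the sources used here. The files held 0 columns of other samples.

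Of 39179 identifiers, 37607 matched GENCODE M21 (GRCm38), which gave symbols, coordinates and exon lengths. Counts were tested with edgeR 4.0.16 in R 4.3.3: filterByExpr (minimum count 10, minimum total 15), TMM, and the robust quasi-likelihood test (Benjamini-Hochberg over the 14928 genes that passed, threshold 0.05). SE is the absolute log2 fold change over the square root of F, and 95% intervals use the fit's degrees of freedom. The fit was also run on counts simulated from its own means and dispersions. The simulated counts held no length trend and no outlying library, so that run cannot show how the fit handles either. A count of 0 was read as up to 3 counts, for counting error only. Shared sequence is the share of 31-base words of a gene's longest transcript found in other genes. Pairs of replicates differed by at least 20.0 chi-square units per degree of freedom, so none is a copy of another.

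The members, gene lists and promoter words were chosen with earlier results of these data known. All members are named, with up to 4 called genes per direction of each list and 10 genes always named, of which Edil3 had 1 count in all. One marker gene and the B cell marker sum are not reported here. Alternatives were RLE, upper-quartile or no factors, no filter or 5 CPM in 3 libraries, DESeq2 1.42.0, limma-voom 3.58.1, dispersion without robust fitting, a replicate block, omission of 1 library at a time, thinning to the smallest library and, added after seeing the data, removal of the length trend.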

Additional observations from a re-analysis of the deposited data

How the results depend on the processing

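Over 612 combinations of a member and an alternative, 589 kept both the direction (for called values) and the side of the threshold, 12 lost a call (Ccnb2 in 2, Bub1b in 10) and 11 gained one (Mcm7, Mcm5, Top2a, Ccnb1 and Kif11), and no called member changed sign. The 2 members called higher became 1 with RLE factors, limma-voom or the replicate block and 4 with library sizes alone. Leaving out each library in turn gave 0 to 5 members called higher and 0 to 1 called lower, with the highest counts without DEL-1-Fc replicate 1. For all genes it gave 428 to 1485 called higher and 466 to 1518 called lower, against 956 and 928. The member median log2 fold change stayed between 0.04 and 0.09, and the ratio of mitosis to replication sums in DEL-1-Fc relative to Fc, 0.958, stayed below 1 with geometric means and without each library in turn. Without DEL-1-Fc replicate 1 the DEL-1-Fc ratios left were 0.534 and 0.514, beside a Fc mean of 0.534. The median log2 fold changes then changed order, at 0.08 for mitosis and 0.05 for replication members, against 0.01 and 0.08 with all libraries. Library sizes alone moved the median over all genes to 0.04 and the share of calls that were higher from 50.7% to 59.8%.

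Same-numbered Fc and DEL-1-Fc libraries had deviations correlated at 0.02, 0.10 and 0.05, and pairs of unlike number ran from -0.13 to 0.06. Not every library correlated best with its own number. The labels name no pairing, and whether same-numbered libraries share a mouse or culture was not tested. With the replicate block, calls over all genes went from 1884 to 733 higher and 777 lower. The cause of these changes was not tested. No member's count in any library was under 989, and with all libraries thinned to the smallest 2 members were called higher, Ccnb2 and Mcm7, with Bub1b no longer called.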
